A study of Sus scrofa with 6 samples.

Results

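Genes of calcium handling, ion channels and ion pumps were examined in left ventricular (LV) myocardium, comparing Dox-injected with PBS-injected piglets. A probe set was taken as a member when the single gene symbol of its annotation began with KCN, SCN and a digit, CACN, ATP1A, ATP1B, ATP2A, ATP2B, RYR, SLC8A, CLCN, CAMK2 or TRPC, named an ITPR or HCN gene or a connexin (GJA, GJB, GJC), or was PLN, SLN, CASQ1, CASQ2, HRC, TRDN, ASPH or JPH2. This gave 57 of the 6765 genes that have a probe set with a single symbol, measured by 93 of the 24123 probe sets on the array. Doxorubicin (Dox), an anthracycline used against cancer, is known to be toxic to heart muscle, and phosphate-buffered saline (PBS) served as the control injection. The 6 animals were Large White piglets of 28 days of age, 3 given Dox at 2.0 mg/kg and 3 given PBS, with the injection at 8 days of age and tissue taken 3 weeks later per the labels. The paper's methods give the same breed but other ages at injection and at tissue collection, and the ages of the labels are used here. Total RNA of each animal was hybridized to 1 Affymetrix Porcine Genome Array.

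In a ventricular muscle cell, calcium entering through voltage-gated calcium channels opens ryanodine receptors of the sarcoplasmic reticulum, and the released calcium starts contraction. Relaxation follows when the pump SERCA2 returns calcium to the store, under the brake of phospholamban, and the sodium-calcium exchanger removes calcium from the cell. Potassium channels end the action potential and set the resting potential, connexins couple neighbouring cells, the sodium-potassium pump maintains the ion gradients, and the calmodulin-dependent kinase CaM kinase II adjusts many of these proteins.

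A probe set was read as above the Tag range on an array when its MAS5 signal exceeded the highest of 17 Tag probe sets there, whose synthetic sequences match no pig gene. That highest Tag signal was between 2.5 and 6.3 on the 6 arrays. Of the 93 member probe sets, 44 exceeded the Tag range on all 6 arrays, 9 on 3 to 5 arrays, 21 on 1 or 2 arrays and 19 on no array. The share above on all 6 arrays was 47.3% of the members and 58.4% of the 23999 probe sets tested, and the share above on none was 20.4% and 15.2%. Per gene, 30 genes had at least 1 probe set above the Tag range on every array. All 5 probe sets of CaM kinase II and its inhibitor and all 4 of the sodium-potassium pump were among them, compared with 10 of 40 potassium channel probe sets and 6 of 14 of calcium release and storage. A level within the Tag range gives only an upper bound for that probe set, and its fold was not interpreted when 4 or more of its 6 signals lay there.

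**Figure D1:**
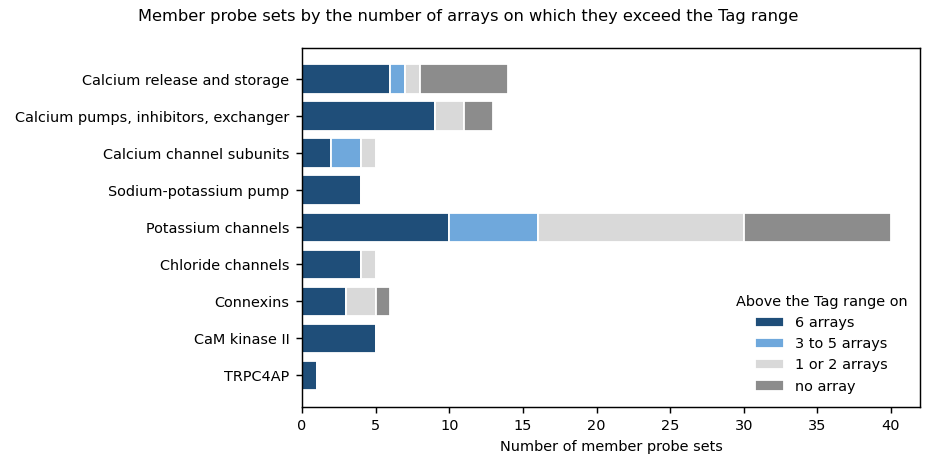
Number of member probe sets (horizontal axis) in each group of genes (vertical axis), coloured by the number of arrays on which the probe set exceeded the highest Tag signal. All 5 CaM kinase II probe sets and all 4 sodium-potassium pump probe sets exceeded it on 6 arrays, compared with 10 of the 40 potassium channel probe sets.

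The members within the Tag range included forms that are known mainly from other tissues. No probe set of RYR1, the ryanodine receptor of skeletal muscle, or of RYR3, a further ryanodine receptor, exceeded the Tag range on any array. The same was true of ITPR1, an inositol trisphosphate receptor, of KCNMA1, the pore of the large-conductance calcium-activated potassium channel, and of KCNA6, KCNE2, KCNF1 and KCNJ1. ATP2A1, the fast skeletal muscle form of SERCA, exceeded it on at most 2 arrays, with signals between 0.6 and 8.5 at its brighter probe set. KCNH2, the pore of the rapid delayed rectifier current of the heart, exceeded it on 1 array at each of its probe sets, with signals between 0.4 and 4.4. CACNB2, the calcium channel beta subunit typical of heart muscle, exceeded it on 2 arrays, with signals between 0.7 and 4.6. Of 48 genes chosen to be named whatever their values, 22 have no probe set under their symbol and are not analysed here, among them CACNA1C, KCND3, KCNJ11, JPH2 and HCN4. Of the TRPC symbols, only TRPC4AP was found, which encodes a protein associated with TRPC4 and not a channel.

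Where a call needed both an adjusted p no higher than 0.05 and a fold of 2 or more, limma called 0 of the 93 member probe sets, beside 0 (0%) of all 23999 tested. The smallest adjusted p was 0.521 among the members and 0.428 over the whole array. Before adjustment, 1 member probe set was higher in Dox at p of at most 0.05, compared with 3.62% of all probe sets, and 3 were lower, compared with 5.92%. The methods' t-test also called 0 of the members, with 0 higher and 2 lower before adjustment, beside 1719 of all 23999 probe sets in either direction. Without overlap between the groups, 5 member probe sets (5.38%) were higher on each Dox array than on each PBS array, beside 6.19% of all probe sets, and 8 (8.60%) were lower, beside 10.1%. Over all 93 member probe sets, the shares lay below those of the array in each of these 4 counts. Of the 53 that exceeded the Tag range on at least 3 arrays, 4 (7.55%) were higher without overlap, beside 6.78% of all such probe sets. In the same set 6 (11.3%) were lower without overlap, beside 12.4%. The median log2 difference, Dox minus PBS, was -0.02 over the members, with 44 above and 49 below 0, and -0.10 over all probe sets. Over the 44 members above the Tag range on every array it was -0.14, compared with -0.12 for all such probe sets. With 3 arrays in each group the smallest two-sided p of an exact permutation test is 0.1, and this small number of arrays limits how precisely any difference was measured. In this bulk tissue, fewer cells of a type and less RNA per cell cannot be told apart.

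Among the members above the Tag range on all 6 arrays, the median within-group SD of the log2 signal was 0.23 in PBS and 0.41 in Dox, close to 0.24 and 0.39 over all such probe sets. The array of Dox replicate 3 gave the highest or the lowest signal for 29 of these 44 members (65.9%, and 62.2% of all such probe sets), and that of PBS replicate 1 for 22 (50%, and 43.5%). The array of Dox replicate 1 had the highest ratios of 3' to 5' GAPDH control signals, a sign of RNA quality, at 1.55 and 2.93 compared with 1.16 to 1.28 and 1.18 to 1.68 on the other arrays. The same ratio for actin was highest on the array of PBS replicate 2, at 120.6, beside 76.9 on that of Dox replicate 1. It ran from 29.6 to 62.4 on the other arrays. The part of RNA quality in the values of the members was not tested. The defining genes of ventricular muscle were bright on every array. All 10 cardiac muscle markers with a probe set exceeded the Tag range on 6 arrays, with a summed signal of 48441 to 59227 in PBS and 60950 to 79051 in Dox and a median log2 difference of 0.31. That difference was -0.01 after quantile normalization, with 4 markers above and 6 below 0. The signal at the 99th percentile of the array was 2545 to 2910 in PBS and 2942 to 3619 in Dox, whereas the median signal was 16.8 to 17.8 and 13.5 to 15.6.

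**Figure D2:**
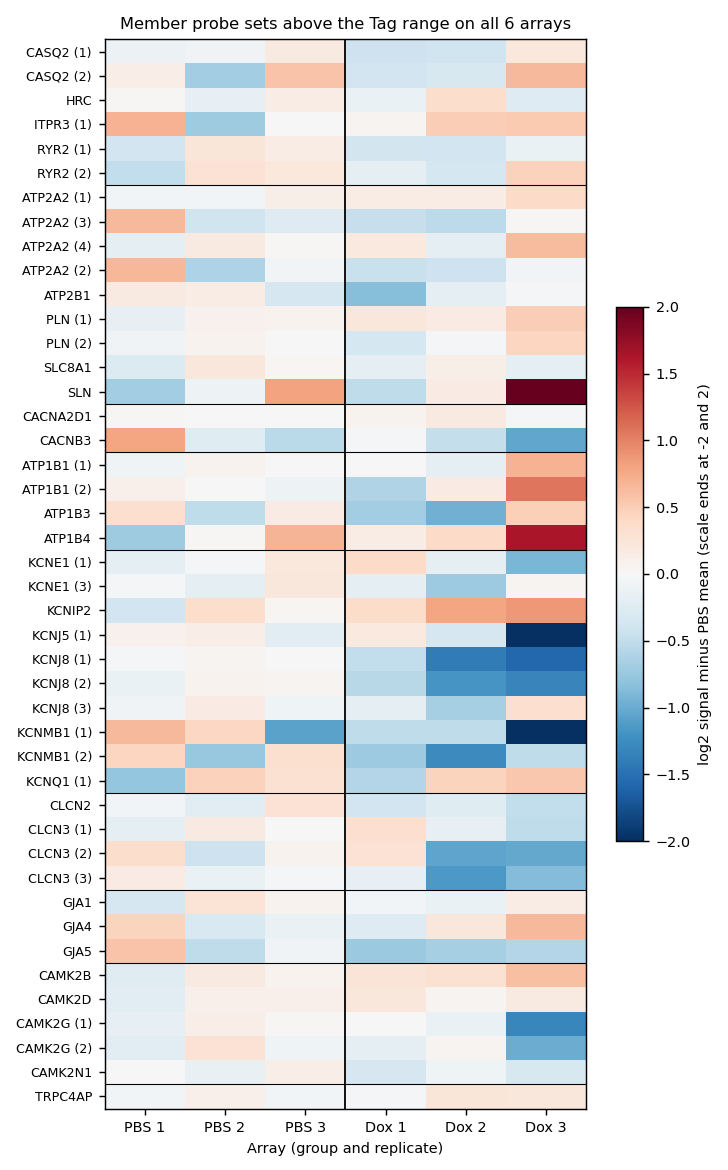
Log2 signal minus the PBS mean (colour, ending at -2 and 2) for the 44 member probe sets above the Tag range on all 6 arrays (rows) on each array (columns), with black lines between groups of genes and the probe sets of 1 gene numbered from the brightest. KCNJ8 (1) and (2) are below the PBS mean on each Dox array, KCNIP2 is above it on each, and SLN and KCNJ5 (1) differ mainly on the array of Dox replicate 3.

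Of the 40 potassium channel probe sets, of 22 genes, 4 (10%) had p no higher than 0.05 before adjustment, beside 9.54% of all probe sets tested. Their median log2 difference was -0.21, beside -0.10 over all probe sets tested. Over the 16 that exceeded the Tag range on at least 3 arrays it was -0.56, beside -0.13 over all such probe sets. These 16 hold 3 probe sets each of KCNJ8 and KCNE1 and 2 each of KCNJ5 and KCNMB1, so a few genes weigh on that median. KCNJ8 encodes Kir6.1, a pore subunit of ATP-sensitive potassium channels that is known from vascular smooth muscle and pericytes. Its brightest probe set had signals of 233, 247.1 and 237.2 in PBS and 170.8, 90.2 and 80.6 in Dox, or 239 ± 7.24 and 114 ± 49.5 (SD, n = 3). Each Dox array was below each PBS array, and the array of Dox replicate 1 was nearest to the controls. The log2 difference was -1.15 (SE 0.30, 95% confidence interval -1.83 to -0.48, adjusted p = 0.521 from limma), a ratio of 2.22 of the PBS over the Dox geometric mean. A second KCNJ8 probe set had signals of 195.5, 225.7 and 221.6 in PBS and 145.3, 94.3 and 85.5 in Dox, again without overlap. Its log2 difference was -1.02 (SE 0.25, adjusted p = 0.521 from limma). The third and dimmest KCNJ8 probe set lay between 16.3 and 32.8 on all arrays with overlapping groups and a log2 difference of -0.17, which was 0.06 after quantile normalization. For the brightest probe set the difference was between -1.49 and -0.95 when any 1 array was left out, and -1.05 after quantile normalization.

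Markers of the vessel wall were read beside KCNJ8. Of the other 7 smooth muscle and pericyte markers with a probe set, all were above the Tag range on every array, 4 were higher and 3 lower in Dox, and none had groups that did not overlap. Their median log2 difference was 0.02, and their summed signal ran from 5880 to 6596 in PBS and from 5571 to 9113 in Dox. These 7 were ACTA2, TAGLN, CNN1, SMTN, RGS5, PDGFRB and DES. DES, for desmin, is a muscle gene not limited to the vessel wall, and no median or sum without it is given. RGS5, a marker of pericytes, had signals of 1612, 749.5 and 968.3 in PBS and 857.6, 756.4 and 463 in Dox, and PDGFRB, the pericyte receptor for platelet-derived growth factor, a log2 difference of 0.02. The 11 endothelial markers had a median log2 difference of -0.19, 2 of them lower without overlap, and a summed signal of 1632 to 2443 in PBS and 1521 to 1558 in Dox. The 9 fibroblast markers were all lower on average, with a median of -0.91, 4 of them without overlap, and a summed signal of 4264 to 6696 in PBS and 2068 to 4159 in Dox. Over all probe sets, 10.1% were lower without overlap. The part of these cell types in the KCNJ8 values was not tested. ABCC9, the usual partner of Kir6.1, has no probe set under its symbol.

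KCNMB1, the smooth muscle beta subunit of the large-conductance calcium-activated potassium channel, was measured above the Tag range by a pair of probe sets. The brighter gave signals of 26.1, 22.4 and 8 in PBS and 11.7, 11.7 and 3.8 in Dox, with 1 PBS array below the Dox arrays of replicates 1 and 2. The log2 differences of the pair were -1.06 (SE 0.62) and -0.84 (SE 0.47), with adjusted p of 0.593 and 0.579 from limma. Both intervals included 0, and the first difference was -0.52 without the array of Dox replicate 3.

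KCNIP2 encodes KChIP2, the auxiliary subunit of the Kv4 channels that carry the transient outward current of the heart. Its signals were 432.4, 720.6 and 582.7 in PBS and 732.9, 982.1 and 1028.8 in Dox, or 579 ± 144 and 915 ± 159 (SD, n = 3). The lowest Dox signal was just above the highest PBS signal, so the groups did not overlap. The log2 difference was 0.68 (SE 0.23, 95% confidence interval 0.14 to 1.21, adjusted p = 0.521 from limma), a geometric mean 1.60 times that of PBS. It was 0.61 after quantile normalization and 0.64 after cyclic loess. It stayed between 0.48 and 0.85 when any 1 array was left out, although the unadjusted p was 0.068 without PBS replicate 1 and 0.0649 without Dox replicate 2. The pores of these channels were not measured under the symbol KCND3.

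**Figure D3:**
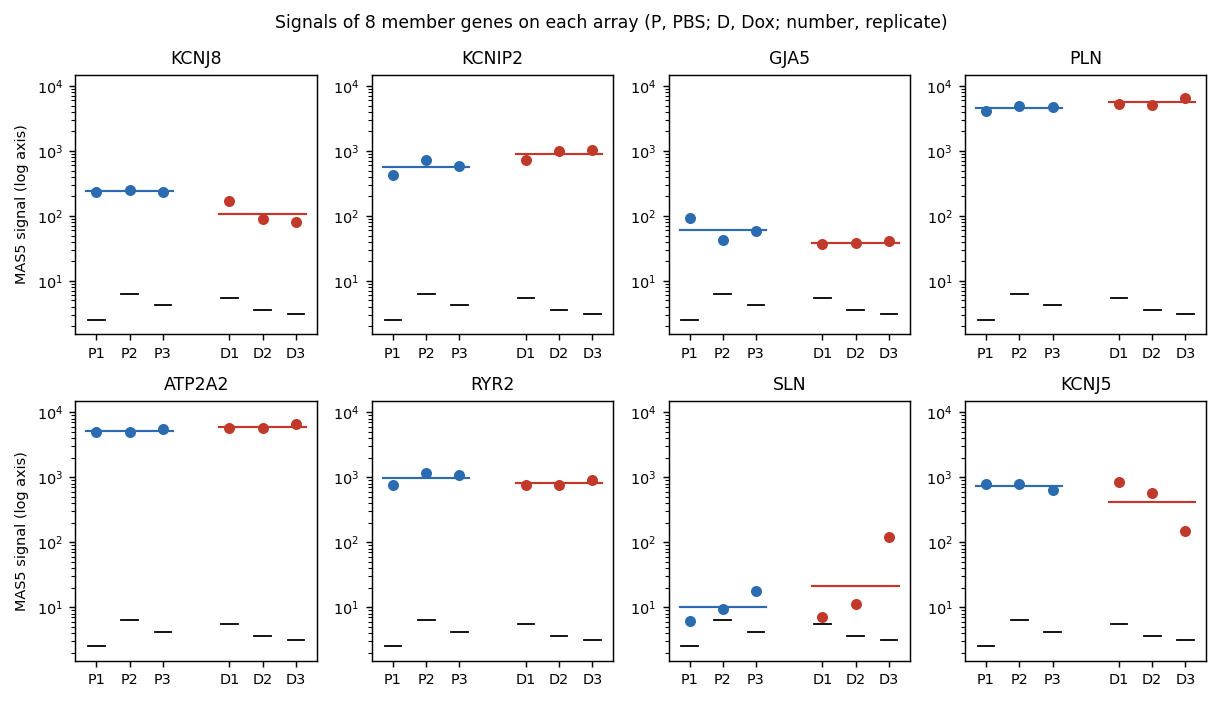
MAS5 signal on a log axis of 8 member genes at their brightest probe set on each array, with PBS-injected piglets (P) in blue and Dox-injected piglets (D) in red. Coloured lines are geometric means of 3 arrays and black dashes the highest Tag signal of each array. As deposited, KCNJ8 and GJA5 are lower and KCNIP2, PLN and ATP2A2 higher on each Dox array than on each PBS array (the PLN and ATP2A2 differences turned below 0 after quantile normalization), and SLN and KCNJ5 stand apart on the array of Dox replicate 3 alone.

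KCNJ5 encodes Kir3.4, a subunit of the acetylcholine-activated potassium channel, which is known mainly from the atria and nodes. Its signals were 775.5, 799.1 and 627.8 in PBS and 832.4, 580.1 and 147.3 in Dox. Only the array of Dox replicate 3 was far below the others, and the log2 difference of -0.82 (SE 0.55, adjusted p = 0.626 from limma) was -0.07 without it. A dimmer KCNJ5 probe set did not repeat this, with 8 on the array of Dox replicate 3 and its lowest signal, 2.9, on that of Dox replicate 1. KCNJ3, which encodes Kir3.1, the partner of Kir3.4, was dim, with signals of 3.4, 4.3 and 6.6 in PBS and 6.1, 8 and 3.2 in Dox and a log2 difference of 0.23 (SE 0.55, adjusted p = 0.899 from limma). KCNJ2 encodes Kir2.1, a main channel of the resting potential. It exceeded the Tag range on 3 of 6 arrays, with signals of 5.7, 4.5 and 6.7 in PBS and 2.7, 3 and 5.2 in Dox (log2 difference -0.68, SE 0.51, adjusted p = 0.656 from limma).

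KCNQ1 and KCNE1 together form the channel of the slow delayed rectifier current. KCNQ1 had signals of 7.7, 18.1 and 16.2 in PBS and 8.7, 17.9 and 19.1 in Dox at its brightest probe set (log2 difference 0.13, SE 0.49, adjusted p = 0.935 from limma), and its other probe sets lay in the Tag range on 4 or more arrays. KCNE1 had signals of 451.3, 512 and 601 in PBS and 678.4, 456 and 273.4 in Dox, so that both the highest and the lowest array were from the Dox group (log2 difference -0.24, SE 0.31, adjusted p = 0.809 from limma). A dim KCNE1 probe set was lower without overlap, with 15.4, 11.5 and 10.2 in PBS and 5.4, 4.1 and 9.6 in Dox (log2 difference -1.03, SE 0.46, adjusted p = 0.526 from limma). A further dim one overlapped, at -0.29. The KCNE1 probe sets thus shared a sign while the bright one spanned both groups' range.

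Of the remaining low potassium channel probe sets, KCNIP1 and a KCNN3 probe set were lower without overlap with all but 1 of 6 signals in the Tag range, and no fold is given for them. KCNIP1 encodes a neuronal relative of KChIP2 and KCNN3 a small-conductance calcium-activated potassium channel. KCNIP1 was 1 of the 3 lower member probe sets at an unadjusted p of at most 0.05, so KCNJ8 alone accounted for those that lay above the Tag range.

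The calcium release and storage genes had a median log2 difference of -0.02 over the 7 probe sets that exceeded the Tag range on at least 3 arrays, and of 0.29 over all 14, and none reached an unadjusted p of 0.05. RYR2, the ryanodine receptor of heart muscle, had signals of 752.5, 1165.2 and 1086.3 in PBS and 762.7, 751 and 901.6 in Dox at its brightest probe set. The lowest PBS array lay among the Dox arrays, and the log2 difference was -0.29 (SE 0.21, 95% confidence interval -0.76 to 0.18, adjusted p = 0.636 from limma). A dimmer RYR2 probe set gave -0.03, or 0.19 after quantile normalization, and one above the Tag range on 3 arrays gave 0.57, so the probe sets of the gene differed in sign. CASQ2, the calcium buffer calsequestrin of the heart, had signals of 146.6, 150.2 and 180.1 in PBS and 118.9, 120.7 and 182.7 in Dox (log2 difference -0.20, SE 0.24, adjusted p = 0.79 from limma). Its lowest 2 and its highest signal were all from the Dox group, and the difference was -0.40 without the array of Dox replicate 3. A dimmer CASQ2 probe set overlapped, with a log2 difference of -0.02 that was 0.24 after quantile normalization and 0.18 after cyclic loess. HRC, a histidine-rich calcium-binding protein of the store, had 342 ± 36.3 in PBS and 343 ± 80.1 in Dox (SD, n = 3), and the sign of its log2 difference of -0.02 (SE 0.22) turned after either normalization. ITPR3, an inositol trisphosphate receptor, lay between 8.8 and 23.4 on all arrays, with a log2 difference of 0.36 (SE 0.43, adjusted p = 0.788 from limma).

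Calcium pumps, their inhibitors and the exchanger had a median log2 difference of -0.09 over 13 probe sets, or 0.01 over the 9 that exceeded the Tag range on at least 3 arrays, and ATP2A2 and PLN were higher in Dox without overlap as deposited but not after quantile normalization. ATP2A2 encodes SERCA2, the pump of the cardiac store. Its brightest probe set had signals of 4925.5, 4910.2 and 5540.4 in PBS and 5673.1, 5678.1 and 6693.1 in Dox. All Dox arrays were above all PBS arrays by a small margin, and the log2 difference of 0.23 (SE 0.14, 95% confidence interval -0.09 to 0.55, adjusted p = 0.603 from limma) was -0.08 after quantile normalization and -0.04 after cyclic loess. Its other probe sets were dimmer and gave -0.32, -0.30 and 0.22, each with overlapping groups. PLN encodes phospholamban, the inhibitor of SERCA2. Its brightest probe set had signals of 4094.9, 4884.7 and 4814.2 in PBS and 5353, 5130 and 6456.9 in Dox, without overlap, and the log2 difference of 0.29 (SE 0.15, 95% confidence interval -0.06 to 0.65, adjusted p = 0.562 from limma) was -0.04 after quantile normalization and 0.04 after cyclic loess. A second PLN probe set overlapped, at 900 ± 48 in PBS and 931 ± 255 in Dox (SD, n = 3), with a log2 difference of 0.01 that was -0.10 after quantile normalization.

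The bright cardiac muscle markers were read beside ATP2A2 and PLN, and 6 of the 10 were likewise higher on each Dox array than on each PBS array, beside 6.19% of all probe sets. Their median of 0.31 also went to -0.01 after quantile normalization and to 0.03 after cyclic loess. The part of the scaling of bright signals in the ATP2A2 and PLN values was not tested. Within each array, the log2 difference between PLN and ATP2A2 was 0.06 higher in Dox than in PBS (exact permutation test, p = 0.5), a ratio chosen after the values were seen.

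SLN encodes sarcolipin, an inhibitor of SERCA that in the heart is known mainly from the atria. Its signals were 6.2, 9.4 and 17.6 in PBS and 7.1, 11.3 and 118.7 in Dox. The array of Dox replicate 3 alone was high, and the log2 difference of 1.07 (SE 0.97, adjusted p = 0.711 from limma) was -0.17 without it. On that array NPPA, the atrial natriuretic peptide gene, had a signal of 5564.9, beside 173.9 to 552.1 in PBS and 296.7 and 1860.3 on the other Dox arrays. MYL4, the atrial myosin light chain, did not have its highest signal there, with 417.2 beside 619.6 on the array of PBS replicate 1. The summed signal of the 6 atrial markers that are not members was 2259 to 3065 in PBS and 2594, 5093 and 10460 in Dox. That sum includes NPPA, which the paper reports as upregulated and highly variable in the failing LV. Of the 6 markers, 4 were higher and 2 lower, with a median log2 difference of 0.07. There was 1 without overlap in each direction, beside 6.19% of all probe sets higher and 10.1% lower. The part of this sum in the SLN value was not tested. KCNJ3 and GJA5, members that are also atrial markers, were not high on the array of Dox replicate 3, at 3.2 and 40.7.

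SLC8A1, the sodium-calcium exchanger, had signals of 31.9, 44.8 and 39.5 in PBS and 33.9, 41.4 and 33.6 in Dox. The groups overlapped, and the sign of the log2 difference of -0.09 (SE 0.27, adjusted p = 0.928 from limma) turned after either normalization. ATP2B1, a calcium pump of the plasma membrane, had 43.6, 42.5 and 30.3 in PBS and 21.3, 33.5 and 37.2 in Dox, with a log2 difference of -0.36 (SE 0.33, adjusted p = 0.712 from limma).

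**Figure D4:**
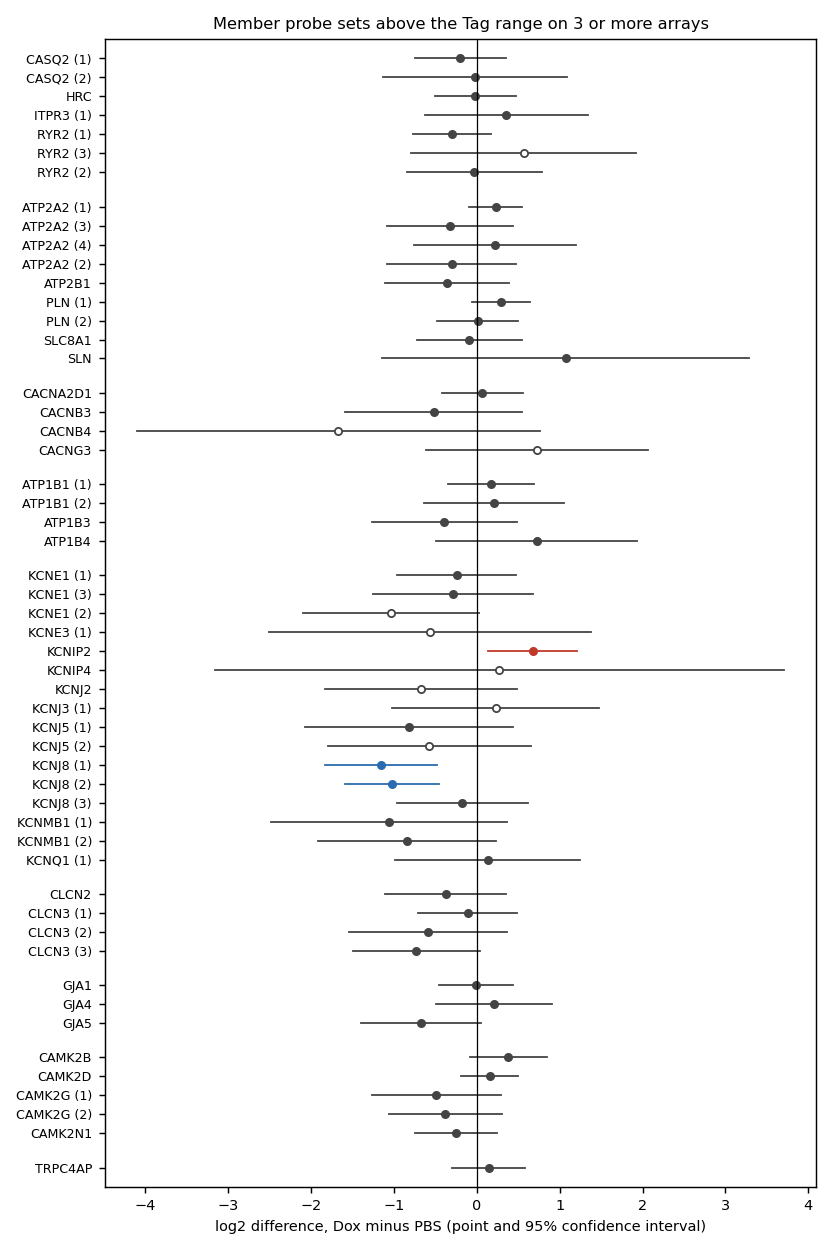
Log2 difference, Dox minus PBS (points), with the 95% confidence interval from limma (lines) for the 53 member probe sets that exceeded the Tag range on at least 3 arrays, ordered by group of genes. Filled points were above the Tag range on all 6 arrays and open points on 3 to 5, numbers in brackets count the probe sets of a gene from the brightest, and colour marks an interval that leaves out 0 before any adjustment. These were 2 KCNJ8 probe sets at -1.15 and -1.02 and KCNIP2 at 0.68.

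Calcium channel subunits were represented by 5 probe sets of accessory subunits, of which 2 exceeded the Tag range on every array. CACNA2D1, the alpha-2/delta subunit of the cardiac channel, had 78.2, 76.4 and 76.9 in PBS and 81.4, 87.3 and 74.7 in Dox. As deposited, CACNA2D1 was one of the steadier members. Its log2 difference was 0.07 (SE 0.21, 95% confidence interval -0.42 to 0.56, adjusted p = 0.925 from limma). After quantile normalization it was 0.23, and after cyclic loess 0.25. CACNB3, a beta subunit, had 29.8, 14.7 and 11.9 in PBS and 17.1, 12.4 and 8.4 in Dox, with a log2 difference of -0.52 (SE 0.47) that was -0.13 without the array of PBS replicate 1. CACNB4 and CACNG3, subunits known mainly from nerve cells, exceeded the Tag range on 3 arrays each and overlapped between the groups.

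The sodium-potassium pump was represented by beta subunits. ATP1B1, the main beta subunit of the heart, had 2865.7, 3218.8 and 3083.4 in PBS and 3067.3, 2678.8 and 4927.5 in Dox. The array of Dox replicate 3 was the highest at this and at the second ATP1B1 probe set, where it gave 1000.6 beside 312.1 to 532.1 on the other arrays. The log2 difference of 0.17 (SE 0.23, adjusted p = 0.813 from limma) was -0.09 without that array and -0.07 after quantile normalization. ATP1B3 had 750, 417.7 and 667.3 in PBS and 368.1, 305.4 and 824.7 in Dox. Its log2 difference of -0.39 (SE 0.38, adjusted p = 0.73 from limma) was between -0.82 and -0.11 when any 1 array was left out. The value of -0.82 was without the array of Dox replicate 3. ATP1B4, a relative of the beta subunits, had 6.5 to 17.1 in PBS and 11.8 to 32.9 in Dox, a log2 difference of 0.72 (SE 0.53, adjusted p = 0.65 from limma), with its highest signal again on the array of Dox replicate 3 and a difference of 0.27 without it.

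Of 5 chloride channel probe sets, 2 were lower without overlap, beside 10.1% of all probe sets. CLCN3, a chloride-proton exchanger of intracellular vesicles, had 129.8, 167.4 and 148.3 in PBS and 187.1, 132.1 and 104.1 in Dox at its brightest probe set. These groups overlapped, and the log2 difference of -0.11 (SE 0.26, adjusted p = 0.902 from limma) was 0.02 after cyclic loess. Dimmer CLCN3 probe sets gave -0.59, with overlap, and -0.73 (SE 0.34, adjusted p = 0.533 from limma), the latter with 42.4, 34.5 and 36.8 in PBS and 33.6, 17.1 and 20.7 in Dox. At all of them the arrays of Dox replicates 2 and 3 were below that of Dox replicate 1. CLCN2, a chloride channel of the plasma membrane, had 20.6, 18.2 and 26.1 in PBS and 16.4, 18.1 and 15.2 in Dox, which missed overlap by 0.1 signal units (log2 difference -0.37, SE 0.32, adjusted p = 0.698 from limma, and -0.13 after quantile normalization).

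Among the connexins, GJA1 encodes connexin 43, the main connexin of ventricular muscle. Its signals were 852.9, 1295.9 and 1128.3 in PBS and 1040.7, 983.9 and 1190.3 in Dox, with a log2 difference of -0.01 (SE 0.20, 95% confidence interval -0.46 to 0.44, adjusted p = 0.988 from limma). The Dox arrays all lay within the PBS range. GJA5 encodes connexin 40, known from atrial muscle, the conduction system and arterial endothelium. Its signals were 91.4, 43.3 and 58.1 in PBS and 36.5, 38.6 and 40.7 in Dox, so that the narrow Dox group lay below each PBS array. The log2 difference of -0.67 (SE 0.32, 95% confidence interval -1.39 to 0.06, adjusted p = 0.539 from limma) was -0.38 without PBS replicate 1, whose summed endothelial marker signal of 2443 was the highest of the 6 arrays. GJA4, which encodes connexin 37 of arterial endothelium, had 135.1, 80.7 and 90.4 in PBS and 83.6, 116.9 and 156.4 in Dox, a log2 difference of 0.21 (SE 0.31, adjusted p = 0.831 from limma). The part of endothelial cells in the GJA5 value was not tested. Of the conduction system markers only ID2 and GJA5 have a probe set, and ID2 lay between 0.5 and 10.7.

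CaM kinase II is encoded by several genes, of which CAMK2D is the main form in heart muscle. CAMK2D had signals of 3382.9, 4177.3 and 4205.2 in PBS and 4568.1, 4063.4 and 4424.9 in Dox, and its log2 difference of 0.16 (SE 0.15, adjusted p = 0.727 from limma) was -0.11 after quantile normalization. CAMK2B had 201.3, 268.2 and 248 in PBS and 282.5, 292.1 and 359.1 in Dox, without overlap, with a log2 difference of 0.38 (SE 0.20, 95% confidence interval -0.08 to 0.84, adjusted p = 0.564 from limma). CAMK2G had 207.8, 254.9 and 237.5 in PBS and 230.1, 212 and 93.8 in Dox. The array of Dox replicate 3 was the lowest at both CAMK2G probe sets, and their log2 differences of -0.49 and -0.38 were each -0.07 without it. CAMK2N1, an inhibitor of the kinase, had 99.2, 88.6 and 108.3 in PBS and 77.8, 92.6 and 78.5 in Dox (log2 difference -0.25, SE 0.22, adjusted p = 0.701 from limma). TRPC4AP had 161, 179.5 and 161.2 in PBS and 164, 196.9 and 194.4 in Dox, a log2 difference of 0.14 (SE 0.19).

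Of 11 genes with several probe sets that exceeded the Tag range on at least 3 arrays, the sign of the log2 difference was shared in 9 and differed in ATP2A2 and RYR2. After quantile normalization it was shared in 6 and after cyclic loess in 4. The widest gap was within KCNJ8, at 0.98 between the lowest and the highest of its 3 probe sets, and the narrowest within ATP1B1, at 0.04. Probe sets of 1 gene were read on the same RNA and are not replicates of a condition.

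**Figure D5:**
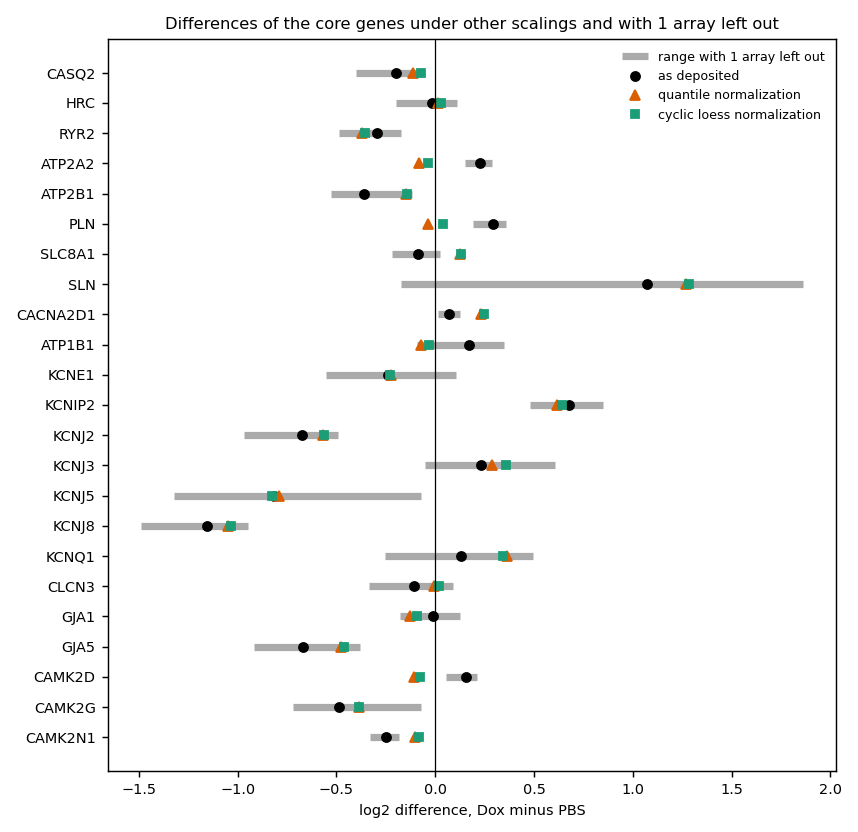
Log2 difference, Dox minus PBS, of the 23 core genes that exceeded the Tag range on at least 3 arrays (rows), as deposited (black), after quantile normalization (orange) and after cyclic loess (green), with the range over leaving out each array in turn (grey bar). KCNJ8 and KCNIP2 keep their side of 0 in all of these, SLN and KCNJ5 have the widest bars, and ATP2A2 lies at 0.23 as deposited and below 0 after either normalization.

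Other genes of the pathway were read at 1 probe set each, and limma called none of them. Of 32 genes of calmodulin, kinase and phosphatase control, 24 had a probe set, and their median log2 difference was -0.04. With p no higher than 0.05 before adjustment, none was higher and 2 were lower, beside 3.62% and 5.92% of all probe sets tested. PPP3CA, the catalytic subunit of the calcium-activated phosphatase calcineurin, had 180.6, 180 and 236.3 in PBS and 129.1, 142.2 and 90.3 in Dox, a log2 difference of -0.74 (adjusted p = 0.521 from limma). CALM3, a calmodulin gene, had 813.4, 566.2 and 575.7 in PBS and 508, 411 and 458.2 in Dox, a log2 difference of -0.49 (adjusted p = 0.521 from limma). Both were lower on each Dox array than on each PBS array at these probe sets. CALM3 has 6 probe sets, with log2 differences from -0.49 to 0.51 and a mean of -0.017. PRKACB, a catalytic subunit of protein kinase A, came next by p and overlapped, at -0.38, or -0.18 without the array of Dox replicate 3.

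Partners of the calcium store, its pump and the store-operated channel had 18 of 26 genes on the array, none with p no higher than 0.05 before adjustment, with 5 above and 13 below 0 and a median of -0.24. ORAI1, the pore of the store-operated channel, had 65.2, 52.1 and 51 in PBS and 49.3, 39.3 and 14.5 in Dox, a log2 difference of -0.87 without overlap (adjusted p = 0.557 from limma) that was -0.34 without the array of Dox replicate 3. ATP2C1, the calcium pump of the Golgi, gave -0.84 and SELENON, a selenoprotein of the reticulum, -0.65, both with overlap, and -0.39 and -0.41 without the array of Dox replicate 3. Mitochondrial calcium uptake and release had 8 of 12 genes, none at an unadjusted p of at most 0.05, and a median of 0.04. MCUB, a subunit of the calcium uniporter, was lower without overlap, with 25.4, 23.5 and 22.4 in PBS and 15.5, 19.4 and 15.7 in Dox (log2 difference -0.50, adjusted p = 0.598 from limma). The mitochondrial sodium-calcium exchanger SLC8B1 gave -0.57, with overlap, which was -0.17 without the array of Dox replicate 3, and the outer membrane channel VDAC2 gave 0.13 without overlap, which was -0.08 after quantile normalization. Partners of sodium and potassium channels and of the sodium pump had 11 of 25 genes, none at an unadjusted p of at most 0.05, and a median of -0.03. GPD1L, a relative of glycerol-3-phosphate dehydrogenase, gave 0.47, with 1471.4, 2081.1 and 1718.4 in PBS and 1843.3, 2860.3 and 2660.8 in Dox. FXYD7, of the family of sodium pump regulators, gave 0.33 without overlap, and the adaptor SNTB1 gave -0.58 with overlap, or -0.29 without the array of Dox replicate 3.

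The 6 skeletal muscle markers that are not members had a summed signal of 57 to 263.8 in PBS and 30.5 to 54.6 in Dox, of which 1 exceeded the Tag range on all arrays. The 9 nerve and glia markers summed to 116.4 to 320.6 in PBS and 99.8 to 327.2 in Dox, and the 3 red cell markers to 186.8 to 683.6 and 106.1 to 251.1. The 8 leukocyte markers summed to 374.1 to 514.6 in PBS and 550.8 to 1362 in Dox, so that each Dox array was above each PBS array. Of these leukocyte markers 6 were higher and 2 lower, and 3 were higher without overlap, beside 6.19% of all probe sets. Their median log2 difference was 0.59, but single markers ran from -0.63 to 3.94. PTPRC, the pan-leukocyte marker, exceeded the Tag range on 1 array, and 5 of the 8 exceeded it on all 6. Their part in the values of the members was not tested.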

How the data were processed

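Total RNA of the LV free wall of 6 piglets, 1 array per animal, was assigned to the PBS and Dox groups from the sample titles. The deposited values are intensities, MAS5 signals on a linear scale that the authors computed with GCOS, version 1.4 in the submitters' processing notes. The 2% trimmed mean of each array lay between 100.03 and 100.04. Scanner files were not used here. Of 24123 probe sets, 124 array controls were left out, and 10069 of the 23999 tested had 1 gene symbol in the platform annotation, 198 several and 13732 none. The gene identifiers of 85 of the 93 member probe sets were in RefSeq, all 85 under the same symbol. No genome build is given in the sources used here for the probe sets, so positions are not given.

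Signals of 0, found for 311 probe sets and no member, were raised to 0.1, and log2 was taken. In R 4.3.3, limma 3.58.1 (lmFit, and eBayes with an intensity trend) was fitted over all 23999 probe sets and 6 arrays without a covariate, with two-sided p-values and Benjamini-Hochberg adjustment. Calls needed an adjusted p no higher than 0.05 and a fold of 2 or more. The exact permutation test was two-sided. Confidence intervals are at 95% without adjustment. The scripts were tested on simulated data.

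The members, the gene lists, the marker lists and the Tag range were chosen with earlier results of these data known. The genes named were every gene of a list of 48 with a probe set, each taken from its brightest probe set by geometric mean over all arrays, up to 20 member probe sets with p no higher than 0.05 before adjustment that exceeded the Tag range on at least 3 arrays, and up to 3 genes of smallest p in each of 4 pathway lists. Other members were named after their values were seen, for their group or for groups that did not overlap. The alternatives were eBayes without a trend, quantile and cyclic loess normalization, an offset of 16 before log2, leaving out dim probe sets, array weights, a replicate block, the methods' t-test (unpaired, on log2 signals), leaving out each array, 1 probe set per gene, the ratio of arithmetic means and the mean over a gene's probe sets. Python 3.11.15 and matplotlib 3.10.9 served for the figures. The qRT-PCR, Western blots and cell cultures of the study were not analysed here.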

Additional observations from a re-analysis of the deposited data

How the results depend on the processing

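The count of called member probe sets was 0 under each alternative run. The members higher in Dox at an unadjusted p of at most 0.05, 1 as reported, were 0 without an intensity trend, 4 with array weights, 0 with the methods' t-test and 0 to 4 when each array was left out in turn. The 4 were found without Dox replicate 1 and the 0 without Dox replicate 2. Those lower, 3 as reported, were 6 without a trend, 9 with array weights and 3 to 7 when each array was left out, 7 without Dox replicate 1. The count over all 23999 probe sets, in either direction, moved too. It was 2290 as reported, 1777 without a trend, 3859 with array weights and 1719 with the methods' t-test. When each array was left out it ran from 1082, without PBS replicate 1, to 3886, without Dox replicate 1. Over the whole array, 14 probe sets were called without Dox replicate 1, none of them a member, and 0 under the other alternatives. The median log2 difference of the members ran from -0.17 with dim probe sets left out to 0.07 with 1 probe set per gene. These 2 settings count fewer probe sets, the first the 53 members above the Tag range on at least 3 arrays and the second 1 for each of 57 genes. The cause of the other shifts was not tested.

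With the replicate block the counts were 0 called, 1 higher and 3 lower, and the median was -0.02. The deviations of same-numbered arrays from their group means correlated at -0.006, 0.024 and -0.055 over all probe sets tested. Over those above the Tag range on all arrays the correlations were -0.017, 0.12 and -0.083. With 3 arrays in each group, these values cannot show whether the replicate numbers paired the samples.

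Of 36 named genes and probe sets followed, 22 kept their sign under every alternative run and 14 turned under some. After quantile normalization the log2 difference was 0.016 for HRC, -0.084 for ATP2A2, -0.036 for PLN, 0.12 for SLC8A1, -0.073 for ATP1B1, -0.11 for CAMK2D and -0.076 for VDAC2. After cyclic loess it was 0.028 for HRC, -0.036 for ATP2A2, 0.13 for SLC8A1, -0.033 for ATP1B1, 0.021 for CLCN3, -0.075 for CAMK2D and -0.057 for VDAC2. With array weights it was 0.19 for HRC and -0.074 for ATP1B1. As the mean of all probe sets of the gene it was 0.081 for RYR2, -0.044 for ATP2A2 and -0.020 for KCNJ3, and as the ratio of arithmetic means 0.0041 for HRC. With each array left out in turn it ran from -0.25 to 0.50 for KCNQ1, -0.22 to 0.025 for SLC8A1, -0.18 to 0.12 for GJA1, -0.20 to 0.11 for HRC, -0.054 to 0.61 for KCNJ3, -0.17 to 1.86 for SLN, -0.091 to 0.35 for ATP1B1, -0.55 to 0.10 for KCNE1 and -0.33 to 0.090 for CLCN3.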
